A study of Drosophila melanogaster with 18 samples.

Results

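The mitochondrial genome transcripts were the 38 genes whose FlyBase symbol begins with mt:, and all of them had a row in both deposited tables, among 17994 features of the RNA table and 17773 of the small RNA table. They comprised 13 messenger RNAs (mRNAs), 2 ribosomal RNAs (rRNAs), 22 transfer RNAs (tRNAs) and the origin region, mt:ori. The study measured RNA and small RNA in whole fly embryos (Drosophila melanogaster) of 0 to 1.5 h, laid at 25 °C, to compare embryos whose mothers were depleted of Piwi, an Argonaute protein that binds small RNAs in the germline, with control embryos. Each assay held 3 groups of 3 libraries. GFP-MatKD, the control, came from 41550/MAT-Gal4 mothers with a hairpin named for GFP, Piwi-MatKD_1 from 37483/MAT-Gal4 mothers and Piwi-MatKD_2 from THU/MAT-Gal4 mothers, both with a hairpin named for Piwi. All groups shared the MAT-Gal4 driver, which by its name is maternal, and w1118 fathers. The growth protocol puts the hairpin in the females and the driver in the males of the cages, so the generation it refers to is uncertain. Each knockdown group is a single hairpin line, and the embryos were pooled from collection cages. The labels do not say whether the libraries of a group came from separate cages, so the p-values measure the spread between these libraries, which may be technical.

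The mitochondrial genome is a small circle that passes from mother to offspring through the egg. Its mRNAs encode core subunits of respiratory complexes I, III and IV and of the ATP synthase, complex V, while most subunits of these complexes are encoded in the nucleus. The 2 rRNAs build the mitochondrial ribosome, and the tRNAs lie between the other genes, so that their removal from long precursor transcripts frees the neighbouring RNAs. The genome is transcribed from both strands: 9 of the 13 mRNAs and 14 of the 22 tRNAs lie on the major coding strand, and both rRNAs, 4 mRNAs and 8 tRNAs on the minor one. In early fly embryos the large rRNA, mt:lrRNA, is also known from outside mitochondria, in the polar granules of the germ plasm.

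Piwi depletion was visible in the RNA libraries: the gene piwi had 7963 to 9360 normalised reads in the controls, 256 to 410 in the first knockdown line, Piwi-MatKD_1, and 87.7 to 646 in the second, Piwi-MatKD_2. A normalised read is a read count divided by 1 size factor per library. The RNA libraries held 8.5 to 73.0 M reads, and the Piwi-MatKD_2 RNA libraries, whose column names fit the group but not a replicate, are named by their totals of 8.5, 21.6 and 73.0 M. Cytosolic rRNA took 5.90% of the 8.5 M library and 10.9% of the 21.6 M library, against 0.182% to 0.535% of the other 7. Piwi-MatKD_1 replicate 2 stood apart by its muscle genes: 6 of the 7 listed, among them Mhc and Act57B, which encode contractile proteins, summed to 1499 normalised reads there and to 0 to 22.9 in the other 8 libraries. The remaining one, Mef2, a transcription factor, made up nearly all of the list elsewhere, with 2112 to 3048 normalised reads in GFP-MatKD and Piwi-MatKD_1 and 827 to 1152 in Piwi-MatKD_2. Of the 4 muscle genes tested, it alone passed in Piwi-MatKD_2 against GFP-MatKD, at a log2 fold change of -1.36 ± 0.17 (SE) and an adjusted p of 0.00360 in limma, while Act57B, Mhc and up had values of 0.90, 1.25 and 0.75. Of the 16 early zygotic genes, 0 passed the test in Piwi-MatKD_1, with a median log2 fold change of -0.35. For Piwi-MatKD_2 the median was -2.40, with 3 of 16 lower by the adjusted p, where 3.04% of all features passed in either direction. Before adjustment 13 of the 16 were under 0.05, against 15.3% of all features. Among the other marker lists, 6 of the 11 follicle cell genes were listed at 0 in every library and the rest summed to at most 9.41 normalised reads, with 0 of the 2 tested ones passing, and 0 of 7 germ plasm genes passed in any comparison. The small RNA libraries held 1.88 to 3.38 M expected counts. The parts of rRNA content, the muscle genes and the zygotic genes in the results below were not tested, except where values without a library are given.

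In the RNA libraries, mitochondrial transcripts were dominated by mt:lrRNA (FBgn0013686, chromosome MT, positions 12735 to 14058, Release 6), which ranked 1 among all features in GFP-MatKD and in Piwi-MatKD_1 and 2 in Piwi-MatKD_2. Together the 38 genes took 3.19%, 3.995% and 3.01% of the reads in GFP-MatKD, 2.78%, 1.85% and 4.06% in Piwi-MatKD_1, and 1.53%, 3.68% and 2.60% in the 8.5, 21.6 and 73.0 M libraries of Piwi-MatKD_2. The Wilson 95% interval ran from 1.53% to 1.54% for the lowest share and from 4.06% to 4.07% for the highest. These intervals cover counting error only, and the spread among libraries of a group was far wider than they are. The groups overlapped. Since the samples are bulk embryos, fewer mitochondria and less RNA in each mitochondrion cannot be told apart.

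Of the 38 genes, 26 had at least 1 normalised read in at least 3 libraries and were tested, 12 mRNAs, both rRNAs, 11 tRNAs and mt:ori. Another 5, all tRNAs, were above 0 in 1 to 6 libraries and never exceeded 3.81 normalised reads. The other 7 were listed at 0 in all 9 libraries: mt:ND5, which encodes a complex I subunit, and the tRNAs for Gln, Cys, Tyr, Asp, Glu and Phe. Of these, 5 are among the 14 minor-strand genes and 2 among the 23 major-strand genes. mt:ND5 had small RNA counts in every library (below), and whether its zeros in the RNA table reflect the RNA or the counting was not tested.

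**Figure D1:**
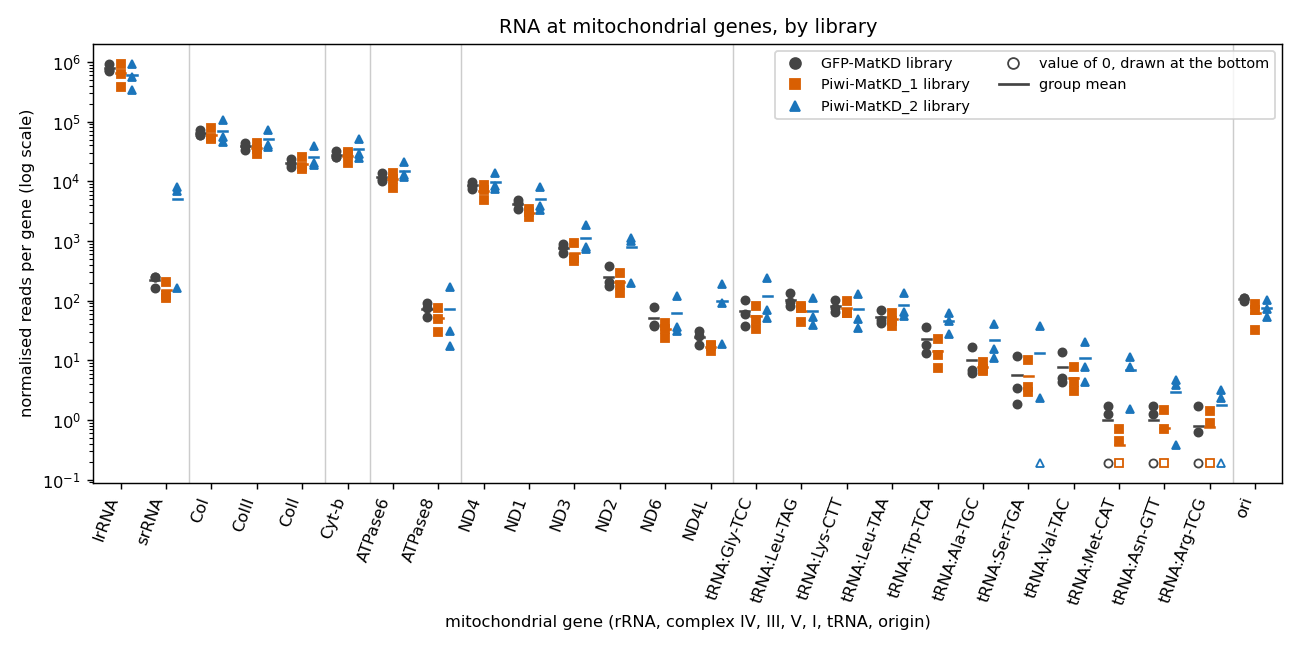
Normalised reads per gene (log scale) of the 26 tested mitochondrial genes, grouped by role. Each point is 1 library, a dash is a group mean, and open symbols are values of 0 drawn at the bottom. mt:lrRNA lies near the top of the scale in every library, and mt:srRNA, mt:ND2 and mt:ND4L have 2 Piwi-MatKD_2 libraries set apart from the third.

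The 2 rRNAs of the mitochondrial ribosome differed in counted reads and in pattern. As the RNA libraries were made with a stranded mRNA kit, these values count only the rRNA that such a kit takes up. mt:lrRNA had 735944, 916765 and 701219 normalised reads in GFP-MatKD, a mean of 784643 ± 115731 (SD, n = 3). It had 621303, 385583 and 924480 in Piwi-MatKD_1 and 340159, 923944 and 564640 in the 8.5, 21.6 and 73.0 M libraries of Piwi-MatKD_2. Each knockdown line held 2 libraries below the control range and 1 slightly above it. Its log2 fold change was -0.37 ± 0.43 (SE) in Piwi-MatKD_1, with a 95% interval from -1.34 to 0.61, and -0.47 ± 0.43 in Piwi-MatKD_2, from -1.45 to 0.51, and neither passed limma's test (adjusted p = 0.9997 and 0.732).

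mt:srRNA (FBgn0013688, chromosome MT, positions 14131 to 14916), the small ribosomal RNA, is separated from mt:lrRNA by 1 tRNA gene. It had 160, 253 and 245 normalised reads in GFP-MatKD and 112, 126 and 209 in Piwi-MatKD_1. In Piwi-MatKD_2 it had 6868 in the 8.5 M library and 7944 in the 21.6 M library, and 162 in the 73.0 M library. The 2 high libraries are the ones with much cytosolic rRNA, and the remaining library lay inside the control range. The log2 fold change against GFP-MatKD was 3.26 ± 1.25 (SE) with all libraries, with a 95% interval from 0.44 to 6.09 and an adjusted p of 0.250 in limma. DESeq2 called it, at 4.51 with an adjusted p of 0.000551. The limma value was -0.41 without the 2 high libraries. This alternative was added after seeing the data and leaves a single Piwi-MatKD_2 library, assumed to vary like the others. mt:lrRNA was at its lowest of all 9 libraries in the 8.5 M library and, at 923944, near its highest in the 21.6 M library.

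Relative to the mRNAs of the same genome, mt:lrRNA was lower in Piwi-MatKD_2. Its ratio to the summed mRNAs was 4.44, 4.55 and 4.39 in GFP-MatKD and 2.25, 2.94 and 3.35 in the 8.5, 21.6 and 73.0 M libraries of Piwi-MatKD_2, so these groups did not overlap. In Piwi-MatKD_1 it was 4.63 and 4.53 in replicates 1 and 3, close to the controls, and 2.48 in replicate 2, the library with the muscle genes. As the ratio is a score over the chosen genes, it is given without a test.

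**Figure D2:**
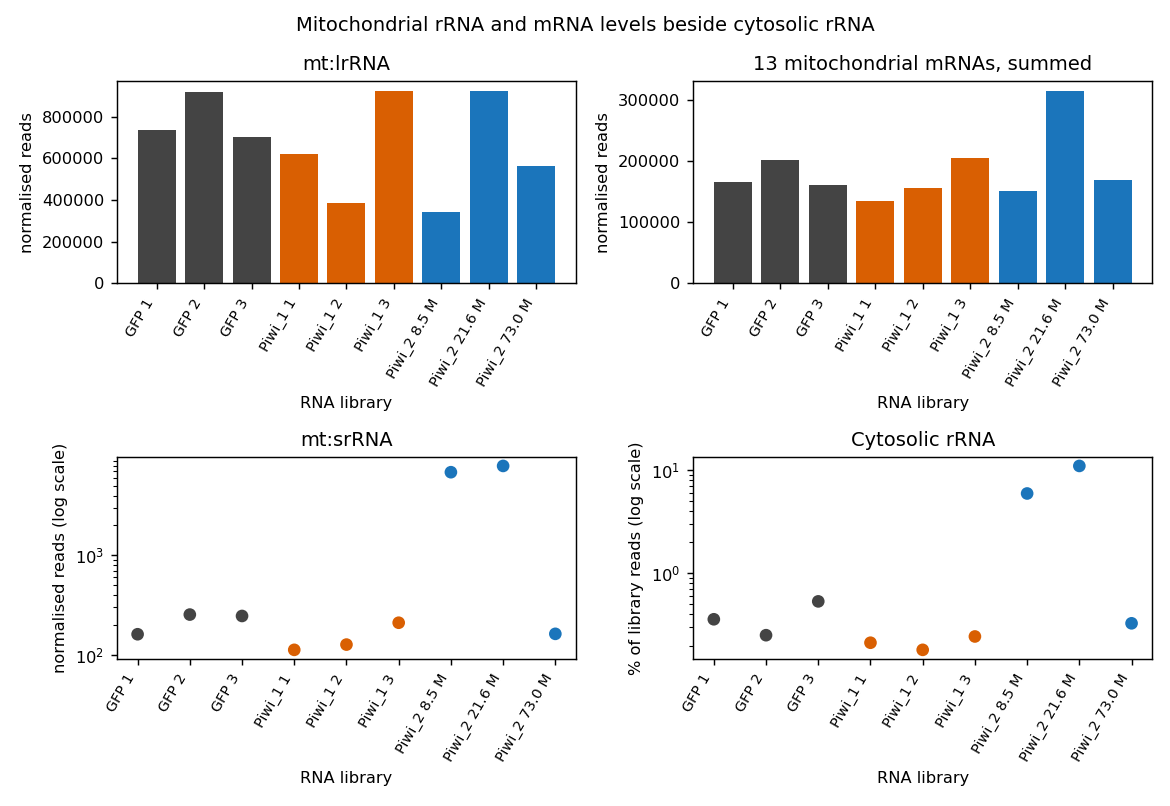
Levels of mt:lrRNA, of the summed mitochondrial mRNAs and of mt:srRNA in normalised reads, and the share of cytosolic rRNA in percent, for each RNA library (log scale in the lower panels; grey GFP-MatKD, orange Piwi-MatKD_1, blue Piwi-MatKD_2). The 8.5 and 21.6 M libraries of Piwi-MatKD_2 stand out for mt:srRNA, with 6868 and 7944 normalised reads, and for cytosolic rRNA, with 5.90% and 10.9%.

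Complex IV, cytochrome c oxidase, passes electrons to oxygen, and its 3 mRNAs were the highest of the mitochondrial mRNAs per kilobase (kb) of length; in normalised reads mt:Cyt-b of complex III was above mt:CoII. mt:CoI, which encodes the catalytic subunit, ranked 15 among all features in GFP-MatKD. It had 58790, 72472 and 59621 normalised reads in GFP-MatKD, 53113, 51854 and 77151 in Piwi-MatKD_1, and 45030, 106287 and 54621 in the 8.5, 21.6 and 73.0 M libraries of Piwi-MatKD_2. The knockdown libraries lay on both sides of the controls. Its log2 fold change was -0.09 ± 0.31 (SE) in Piwi-MatKD_1, with a 95% interval from -0.78 to 0.61, and 0.01 ± 0.31 in Piwi-MatKD_2, from -0.68 to 0.71.

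mt:CoIII, which encodes another core subunit of complex IV, had 39593, 43069 and 33418 normalised reads in GFP-MatKD, 28422, 34879 and 43479 in Piwi-MatKD_1, and 37301, 72508 and 40590 in Piwi-MatKD_2, in the same order of libraries. mt:CoII, whose protein receives electrons from cytochrome c, had 19573, 23308 and 17218 in GFP-MatKD, 16279, 17599 and 25436 in Piwi-MatKD_1, and 18403, 39092 and 19997 in Piwi-MatKD_2. For both, the 21.6 M library was the highest of all 9 and the groups overlapped. In Piwi-MatKD_2 the log2 fold change was 0.32 ± 0.26 (SE) for mt:CoIII and 0.29 ± 0.29 for mt:CoII.

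mt:Cyt-b encodes cytochrome b, the single subunit of complex III from this genome. It had 25021, 32631 and 25547 normalised reads in GFP-MatKD, 20495, 28789 and 31375 in Piwi-MatKD_1, and 24637, 50637 and 28542 in Piwi-MatKD_2. The 21.6 M library was again the highest and the other 8 libraries overlapped. Its log2 fold change was -0.06 ± 0.28 (SE) in Piwi-MatKD_1, with a 95% interval from -0.68 to 0.57, and 0.26 ± 0.28 in Piwi-MatKD_2, from -0.37 to 0.88.

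The 2 complex V genes, whose reading frames share 7 bases, differed in counted reads. Whether their difference reflects the RNA or the counting of reads that cover both genes was not tested. mt:ATPase6, which encodes the subunit of the proton channel, had 10746, 14005 and 10292 normalised reads in GFP-MatKD, 7699, 10879 and 13583 in Piwi-MatKD_1, and 12668, 20808 and 11704 in Piwi-MatKD_2. mt:ATPase8, a short subunit of the membrane part, had 53.4, 89.9 and 74.6 in GFP-MatKD, 48.5, 30.4 and 76.7 in Piwi-MatKD_1, and 30.5, 168 and 17.4 in Piwi-MatKD_2. Per kb, the GFP-MatKD mean was 17305 normalised reads for mt:ATPase6 and 449 for mt:ATPase8. Neither gene separated the groups.

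The complex I mRNAs, for subunits of NADH dehydrogenase, spanned the widest range. mt:ND4 and mt:ND1 were the most abundant, with GFP-MatKD means of 8524 ± 1216 and 4159 ± 708 normalised reads (SD, n = 3), followed by mt:ND3 at 777 ± 136. mt:ND6, at 51.6 ± 22.9, and mt:ND4L, at 24.6 ± 6.18, were the lowest of those above 0. mt:ND4L overlaps mt:ND4 by 1 base, and whether its low value reflects the RNA or the counting was not tested. mt:ND1 had 3399, 4801 and 4278 in GFP-MatKD and 2515, 3391 and 3068 in Piwi-MatKD_1, so every Piwi-MatKD_1 library was below every control, by as little as 3391 against 3399. Its log2 fold change was -0.47 ± 0.30 (SE), with a 95% interval from -1.16 to 0.21, and did not pass the test.

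mt:ND2, mt:ND4L and, at low values, mt:tRNA:Met-CAT shared the pattern of mt:srRNA. mt:ND2 had 203, 377 and 174 normalised reads in GFP-MatKD, 135, 181 and 292 in Piwi-MatKD_1, and 1129, 1007 and 197 in the 8.5, 21.6 and 73.0 M libraries of Piwi-MatKD_2. mt:ND4L had 18.2, 30.5 and 25.2 in GFP-MatKD, 14.2, 17.4 and 17.9 in Piwi-MatKD_1, and 191, 91.0 and 19.0 in Piwi-MatKD_2. For both, the 2 rRNA-rich libraries were above the other 7 and the 73.0 M library lay within the control range. Against GFP-MatKD the log2 fold changes were 1.35 ± 0.64 and 1.49 ± 0.70 (SE), each with an adjusted p of 0.365 in limma, and they were -0.27 and -0.33 without those libraries.

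Of the 11 tested tRNAs, 4 had GFP-MatKD means above 50 normalised reads per library, led by mt:tRNA:Leu-TAG at 103 ± 26.6 and mt:tRNA:Lys-CTT at 80.8 ± 20.6 (SD, n = 3). mt:tRNA:Leu-TAG, which borders mt:lrRNA, had 81.0, 132 and 94.6 in GFP-MatKD, 80.5, 43.5 and 76.0 in Piwi-MatKD_1, and 53.4, 110 and 39.5 in Piwi-MatKD_2. Piwi-MatKD_1 lay below the controls in every library, with 80.5 and 81.0 the nearest pair, and Piwi-MatKD_2 overlapped them. mt:tRNA:Trp-TCA had 13.2, 35.6 and 18.2 in GFP-MatKD, 7.56, 23.2 and 12.2 in Piwi-MatKD_1, and 45.8, 62.8 and 27.9 in Piwi-MatKD_2. Its 3 Piwi-MatKD_2 libraries were all above Piwi-MatKD_1 and overlapped the controls. Between the knockdown lines its log2 difference was 1.66 ± 0.52 (SE), with an adjusted p of 0.181 in limma. The RNA libraries were made with a stranded mRNA kit, so these values count only the tRNA sequence that such a kit takes up.

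mt:tRNA:Met-CAT, which carries methionine, had 1.26, 0 and 1.74 normalised reads in GFP-MatKD, 0.445, 0 and 0.717 in Piwi-MatKD_1, and 11.4, 7.85 and 1.55 in the 8.5, 21.6 and 73.0 M libraries of Piwi-MatKD_2. The rRNA-rich libraries were above the other 7 and the 73.0 M library lay within the control range. The size factors of the 8.5, 21.6 and 73.0 M libraries were 0.262, 0.637 and 2.58, so each of these values stands for few reads. The log2 fold change of mt:tRNA:Met-CAT against GFP-MatKD was 1.83 ± 0.68 (SE), with an adjusted p of 0.228 in limma. It was 0.47 without the rRNA-rich libraries.

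mt:ori, the A+T-rich region that holds the origin of replication, is not a gene with a known product. It had 101, 112 and 112 normalised reads in GFP-MatKD, 69.3, 31.9 and 88.1 in Piwi-MatKD_1, and 72.5, 102 and 53.8 in Piwi-MatKD_2. Piwi-MatKD_1 was below the controls in every library, and the highest Piwi-MatKD_2 library reached into their range. The log2 fold change was -0.88 ± 0.39 (SE) in Piwi-MatKD_1, with a 95% interval from -1.78 to 0.01.

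Compared with GFP-MatKD, 0 of the 26 tested genes passed an adjusted p under 0.05 in Piwi-MatKD_1, where 0.186% of all 10767 tested features did. The same count was 0 of 26 in Piwi-MatKD_2, where 3.04% of all features passed, 0 of 26 for the mean of both lines, where 0.715% passed, and 0 of 26 between Piwi-MatKD_2 and Piwi-MatKD_1, where 2.22% passed. Before adjustment, limma put 0, 2, 0 and 5 of them under 0.05, in the same order, against 2.85%, 15.3%, 7.91% and 14.2% of all features. On whole reads recovered from the values, edgeR's quasi-likelihood test also called 0. DESeq2 called 1 in Piwi-MatKD_2 against GFP-MatKD, mt:srRNA, where it called 8.34% of all features. Between the lines it called 3, mt:srRNA, mt:ND2 and mt:ND4L, where it called 7.13%. Their adjusted p in DESeq2 were 6.73e-05, 0.0191 and 0.00619.

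In Piwi-MatKD_1, 24 of the 26 log2 fold changes were below 0, with a median of -0.32, against a median of 0.01 over all features. This median moved with single libraries: it was -0.12 without Piwi-MatKD_1 replicate 1, -0.14 without GFP-MatKD replicate 2, -0.23 without Piwi-MatKD_1 replicate 2 and -0.55 without Piwi-MatKD_1 replicate 3. In Piwi-MatKD_2, 20 of 26 were above 0, with a median of 0.32, against -0.04 over all features, but without the 2 rRNA-rich libraries 9 of 26 were above 0 and the median was -0.23. Leaving out 1 library gave a median of -0.05 without the 21.6 M library, 0.21 without GFP-MatKD replicate 3 and 0.49 without the 8.5 M library. Genes of 1 genome in 1 library share their source, so these counts are a description and not a test. The genes with Piwi-MatKD_1 below GFP-MatKD in every library were 4 of 26, mt:ND4L, mt:ND1, mt:tRNA:Leu-TAG and mt:ori, where 5.12% of all features did so, and 0 of 26 were higher in every library, against 4.79%. For Piwi-MatKD_2 against GFP-MatKD, 0 of 26 were higher in every library and 0 lower, against 8.07% and 12.9% of all features. The genes with Piwi-MatKD_2 above Piwi-MatKD_1 in every library were 4 of 26, mt:ND4L and the tRNAs for Met, Trp and Ala, against 5.99% of all features, and 0 of 26 were lower, against 9.63%. The comparisons share libraries and are not independent of each other.

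**Figure D3:**
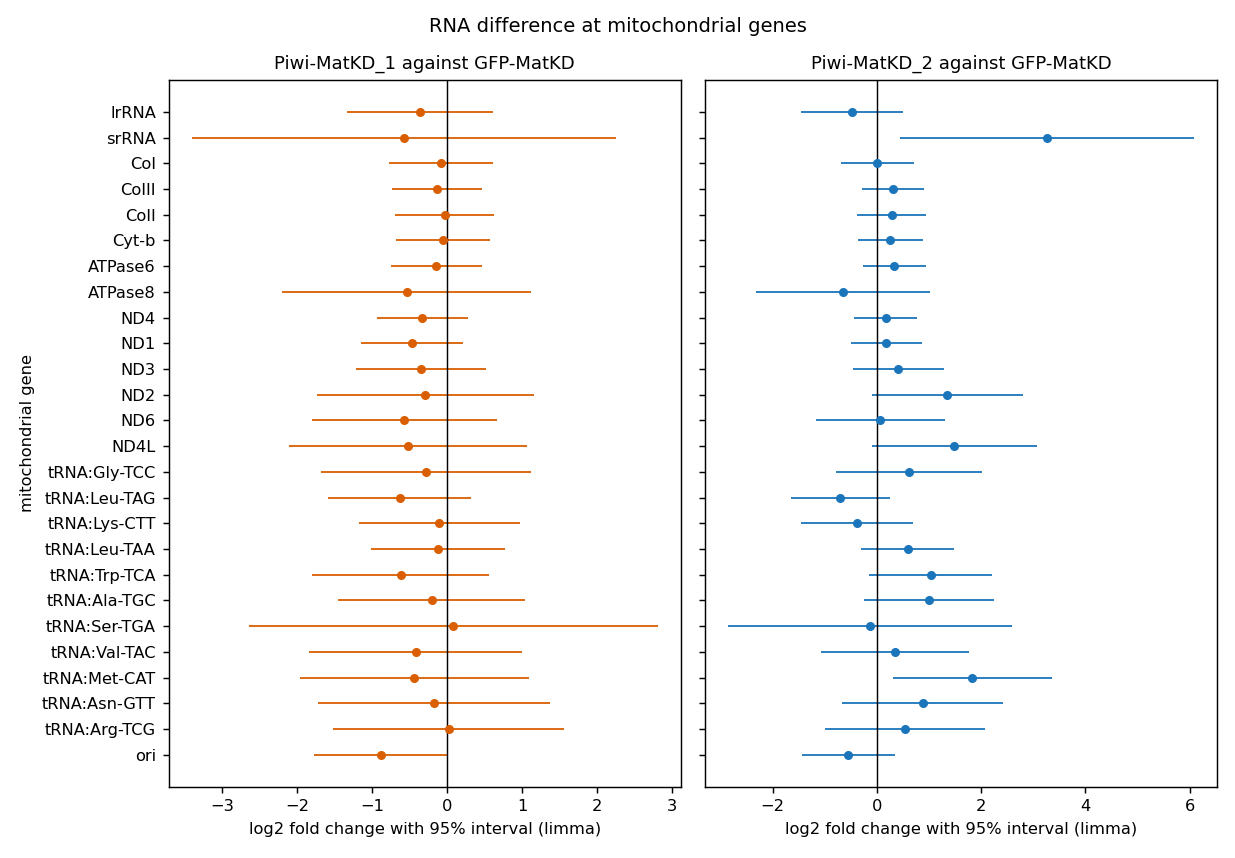
Log2 fold changes on the log2(value + 1) scale with 95% intervals from limma for the 26 tested genes in each knockdown line against GFP-MatKD. In Piwi-MatKD_1, 24 of 26 points lie below 0 and every interval holds 0. Each interval uses the spread pooled over all 9 libraries, so those of Piwi-MatKD_1 include the spread of Piwi-MatKD_2. In Piwi-MatKD_2, mt:srRNA at 3.26 and mt:tRNA:Met-CAT at 1.83 have intervals above 0 and neither passed the adjusted test. The values of mt:tRNA:Met-CAT stand for few reads. Without the rRNA-rich libraries mt:srRNA and mt:tRNA:Met-CAT were at -0.41 and 0.47.

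The order of the mRNAs by level per kb was stable across libraries. In GFP-MatKD it ran from mt:CoIII at 49041 normalised reads per kb through mt:CoI at 41424, mt:CoII at 29245, mt:Cyt-b at 24391, mt:ATPase6 at 17305, mt:ND4 at 6366, mt:ND1 at 4430 and mt:ND3 at 2194 to mt:ATPase8 at 449. Each of these neighbours kept its order in 9 of 9 libraries. Below them, mt:ATPase8 was above mt:ND2 in 7 of 9 libraries, and mt:ND6 and mt:ND4L, at 98.3 and 84.7, were in that order in 5 of 9 and did not differ beyond their spread. mt:lrRNA, at 592630 normalised reads per kb, was above every mRNA, and mt:srRNA, at 279, was between mt:ATPase8 and mt:ND2. Both rRNA values count only what the mRNA kit takes up. The gaps between overlapping genes, mt:ATPase6 and mt:ATPase8 or mt:ND4 and mt:ND4L, were not tested for an effect of counting.

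As shares of the mitochondrial mRNA reads, mt:CoI took 29.8% to 39.6%, mt:CoIII 20.9% to 24.7%, mt:Cyt-b 15.1% to 18.5% and mt:CoII 10.8% to 12.5% over the 9 libraries. The mt:CoI share was 35.5% to 37.3% in GFP-MatKD and 29.8% to 33.8% in Piwi-MatKD_2, which did not overlap, while the 33.4% to 39.6% of Piwi-MatKD_1 overlapped both. The mt:CoII share went the other way without overlap, at 10.8% to 11.8% in GFP-MatKD and 11.9% to 12.4% in Piwi-MatKD_2. For mt:ND6, every Piwi-MatKD_1 library was below GFP-MatKD, at 0.0176% to 0.0215% against 0.0228% to 0.0387%. The shares add up to a fixed total, so they are not independent, and they were not tested. By median, the mitochondrial genes varied more among libraries of a group than all tested features: their median coefficient of variation was 25.3% for GFP-MatKD, 32.8% for Piwi-MatKD_1 and 61.2% for Piwi-MatKD_2, against 10.6%, 20.9% and 30.1%. The medians include tRNAs near the floor, up to mt:tRNA:Arg-TCG at 112% in GFP-MatKD, and features of matched level were not compared. mt:CoI, mt:CoIII and mt:lrRNA varied by 12.1%, 12.6% and 14.7% in GFP-MatKD and by 48.0%, 38.8% and 48.3% in Piwi-MatKD_2. This spread sets the width of the intervals above. Each fit used 1 spread for all 9 libraries, so the Piwi-MatKD_1 intervals also carry the spread of Piwi-MatKD_2. mt:ND4L, for example, varied by 12.1% within Piwi-MatKD_1 and by 86.0% within Piwi-MatKD_2, yet its SE against GFP-MatKD was 0.70 for either line. When Piwi-MatKD_1 was tested without the Piwi-MatKD_2 libraries, 0 of the 26 genes passed as well. Interval widths from that fit are not given.

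The nuclear genes for the same complexes had 77 tested members of 93 found, and 0 passed in any of the 4 comparisons in limma. Over all features, 0.186% passed for Piwi-MatKD_1 and 3.04% for Piwi-MatKD_2 against GFP-MatKD, 0.715% for their mean and 2.22% between the lines. Before adjustment 0, 0, 0 and 1 of the 77 were under 0.05, in that order, against 2.85%, 15.3%, 7.91% and 14.2% of all features. The median log2 fold change of the 77 nuclear genes was 0.15 for Piwi-MatKD_1 and 0.06 for Piwi-MatKD_2. By complex, the Piwi-MatKD_1 medians were 0.10 for 35 genes of complex I, 0.19 for 5 of complex II, which has no mitochondrially encoded subunit, 0.13 for 10 of complex III, 0.21 for 15 of complex IV and 0.18 for 12 of complex V. Of the 72 mitochondrial ribosomal protein genes and the 21 listed factors of mitochondrial DNA and RNA, 0 passed in any comparison. Before adjustment 3 and 1 of them were under 0.05 for Piwi-MatKD_2 against GFP-MatKD, where 15.3% of all features were.

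Set beside the mitochondrial RNA by library, the nuclear subunits ran in another order. They summed to 192271, 181669 and 186442 normalised reads in GFP-MatKD, 193583, 241463 and 168070 in Piwi-MatKD_1, and 222498, 164520 and 230095 in the 8.5, 21.6 and 73.0 M libraries of Piwi-MatKD_2. The 3 libraries with the highest nuclear sums, Piwi-MatKD_1 replicate 2 and the 73.0 and 8.5 M libraries of Piwi-MatKD_2, were also the 3 with the lowest mt:lrRNA. The mitochondrial mRNA sum did not follow that order. It was lowest in Piwi-MatKD_1 replicate 1, at 134146, and the 73.0 M library, at 168738, lay within the control range. The 21.6 M library had the lowest nuclear sum and the highest mitochondrial mRNA sum, 314483. Both sums share the same size factors.

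The small RNA libraries, cut from a gel at 20 to 30 nt per the labels, held the mitochondrial genes in other proportions than the RNA libraries. The 38 genes together took 0.0980%, 0.109% and 0.113% of the expected counts in GFP-MatKD, 0.0992%, 0.286% and 0.206% in Piwi-MatKD_1, and 0.0414%, 0.115% and 0.114% in Piwi-MatKD_2, in the order of their replicate numbers. The Wilson 95% interval was 0.0386% to 0.0445% for the lowest and 0.279% to 0.293% for the highest, for counting error only. Piwi-MatKD_1 replicate 1 lay within the control range and its replicates 2 and 3 above it. The rRNAs, which made up 69.6% to 82.2% of the mitochondrial reads in the RNA libraries, made up 0.514% to 1.39% of the mitochondrial small RNA.

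Of the 38 genes, 19 passed the filter on low counts in the small RNA table: 11 mRNAs, including mt:ND5, both rRNAs, the tRNAs for Cys, Ile, Met, Thr and Tyr, and mt:ori. Another 11 were above 0 and never exceeded 20.0 expected counts, and 8 tRNAs had 0 counts in every library, which allows up to 0.888 to 1.60 CPM, a measure of counts relative to the library total, depending on the library. The values below are CPM after scaling with TMM factors.

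By level per kb in GFP-MatKD, the highest were the tRNAs for Tyr, at 591 CPM per kb, and Cys, at 435, then mt:ND4L at 381, mt:tRNA:Thr-TGT at 302, mt:CoI at 252, mt:Cyt-b at 158 and mt:ND2 at 146. mt:tRNA:Tyr-GTA and mt:tRNA:Cys-GCA are neighbours upstream of mt:CoI, and both were listed at 0 in every RNA library. Tyr was above Cys in 4 of 9 libraries, so these did not differ beyond their spread, and Cys was above Thr in 7 of 9. mt:ND4L was above mt:CoI, and mt:CoI above mt:Cyt-b, in 9 of 9 libraries, while mt:Cyt-b and mt:ND2 kept their order in 4 of 9. mt:CoIII, the highest mRNA per kb in the RNA libraries, was at 16.8 CPM per kb, and mt:lrRNA at 3.17. Across the 37 genes with a length, Spearman's rho between RNA and small RNA per kb in GFP-MatKD was 0.07, over the 13 mRNAs 0.15 and over the 22 tRNAs -0.26; genes of 1 genome are not independent, and this is a description.

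Small RNA was concentrated in 2 stretches, named after seeing the values. The 8 genes from mt:tRNA:Ile-GAT to mt:CoI (chromosome MT, positions 1 to 3009) held 49.7% to 62.1% of the mitochondrial small RNA over the 9 libraries, and 6.51% to 9.62% of the mitochondrial RNA reads. The 5 genes from mt:ND4L to mt:Cyt-b (positions 9545 to 11635) held 29.4% to 42.4% of the small RNA and 2.72% to 5.33% of the RNA reads. These RNA totals include mt:lrRNA, which was 68.3% to 82.2% of them. Within the mRNAs alone, mt:CoI held 29.8% to 39.6% of RNA and 34.6% to 43.7% of small RNA. mt:Cyt-b held 15.1% to 18.5% and 13.2% to 25.6%. mt:ND2, mt:ND4L and mt:ND6 held at most 0.748%, 0.126% and 0.0387% of RNA, and at least 13.5%, 7.65% and 2.50% of small RNA. Neighbouring genes can overlap, as mt:tRNA:Trp-TCA and mt:tRNA:Cys-GCA do by 8 bases on opposite strands, and whether reads there were shared was not tested. Whether counting used strand is not given in the sources used here, so reads from the 2 strands of a gene cannot be told apart.

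**Figure D4:**
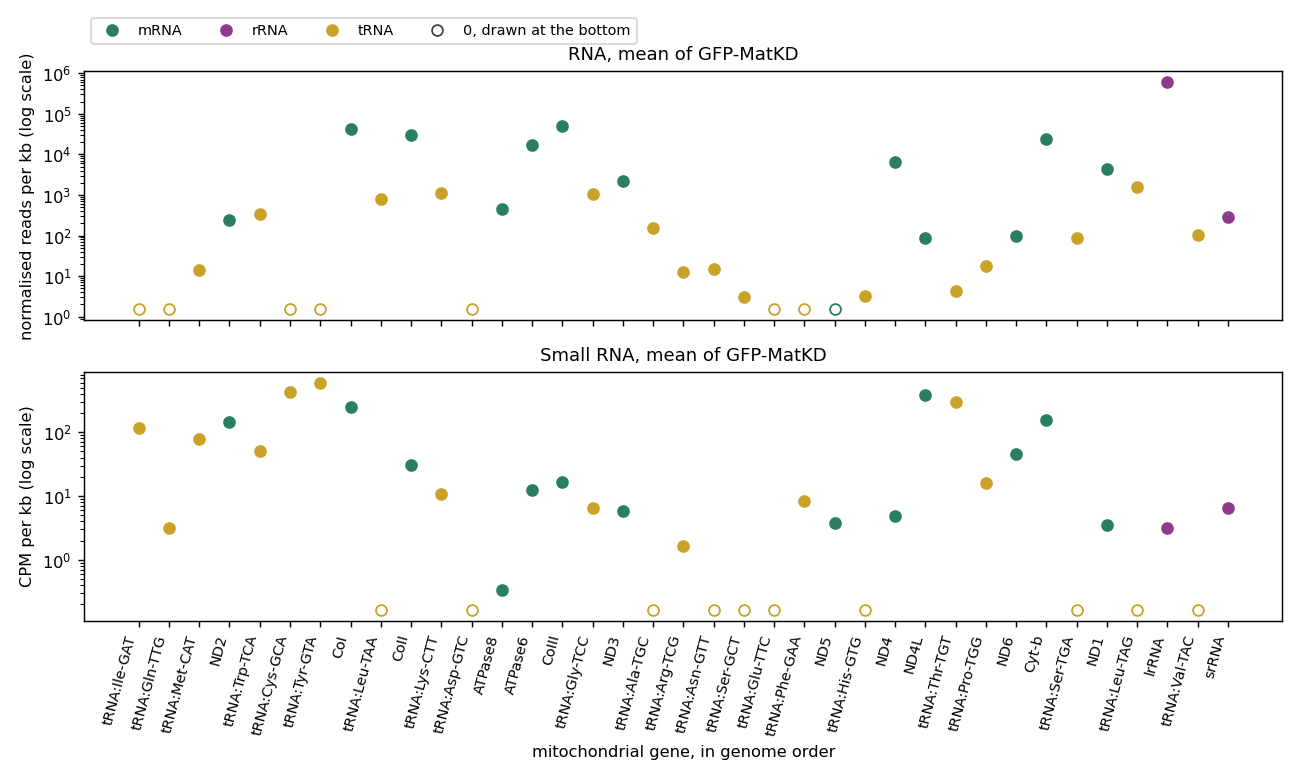
GFP-MatKD means per kb (log scale) of RNA in normalised reads and of small RNA in CPM for the 37 genes with a RefSeq length, in genome order from mt:tRNA:Ile-GAT to mt:srRNA; open symbols are 0. mt:lrRNA is highest in RNA, at 592630 per kb, and near the bottom in small RNA, at 3.17 per kb, where the genes up to mt:CoI and from mt:ND4L to mt:Cyt-b lead.

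Among the mRNAs, mt:CoI carried the most small RNA. It had 336, 435 and 389 CPM in GFP-MatKD, 350, 675 and 623 in Piwi-MatKD_1, and 186, 503 and 370 in Piwi-MatKD_2. Piwi-MatKD_1 replicate 1 lay with the controls, and its other replicates were above all controls. The log2 fold change was 0.51 ± 0.33 (SE) for Piwi-MatKD_1 and -0.13 ± 0.33 for Piwi-MatKD_2, and neither passed edgeR's test (adjusted p = 0.343 and 0.877).

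mt:Cyt-b had 173, 192 and 174 CPM in GFP-MatKD, 223, 258 and 303 in Piwi-MatKD_1, and 128, 191 and 191 in Piwi-MatKD_2. Every Piwi-MatKD_1 library was above every other library. The log2 fold change against GFP-MatKD was 0.54 ± 0.21 (SE), with an adjusted p of 0.127 in edgeR. mt:ND6, a complex I subunit next to it, had 22.7, 26.8 and 23.3 CPM in GFP-MatKD, 33.3, 87.1 and 45.6 in Piwi-MatKD_1, and 17.8, 48.0 and 34.5 in Piwi-MatKD_2. It was above the controls in all Piwi-MatKD_1 libraries, with a log2 fold change of 1.19 ± 0.41 (SE) and an adjusted p of 0.0967 in edgeR; DESeq2 called it, with an adjusted p of 0.0322.

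mt:ND4L had the widest spread within a group. It had 102, 139 and 91.5 CPM in GFP-MatKD, 103, 524 and 201 in Piwi-MatKD_1, and 38.4, 141 and 134 in Piwi-MatKD_2. Piwi-MatKD_1 replicate 2 was the highest of all 9 and the groups overlapped. The log2 fold change was 1.32 ± 0.55 (SE) in Piwi-MatKD_1, with an adjusted p of 0.158 in edgeR.

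mt:ND5, listed at 0 in the RNA table, had 6.05, 8.02 and 5.15 CPM of small RNA in GFP-MatKD, 8.88, 18.3 and 10.1 in Piwi-MatKD_1, and 7.82, 18.7 and 10.5 in Piwi-MatKD_2. Its Piwi-MatKD_1 libraries were above all controls, and 1 Piwi-MatKD_2 library lay within their range. mt:lrRNA had 2.55, 4.17 and 5.88 CPM in GFP-MatKD, 8.28, 12.1 and 13.1 in Piwi-MatKD_1, and 2.13, 6.79 and 7.08 in Piwi-MatKD_2. Its Piwi-MatKD_1 libraries were above all others, on 20.5 to 36.7 expected counts each, and the log2 fold change of 1.39 ± 0.47 (SE) had an adjusted p of 0.0936 in edgeR.

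Among the tRNAs, mt:tRNA:Thr-TGT (FBgn0013707, chromosome MT, positions 9838 to 9903) carries threonine. It was the single mitochondrial gene to pass edgeR's main test of small RNA, and did so between the knockdown lines. It had 21.2, 13.8 and 24.8 CPM in GFP-MatKD, 24.6, 62.3 and 27.1 in Piwi-MatKD_1, and 4.26, 12.7 and 10.3 in Piwi-MatKD_2, the last on 6 to 33.5 expected counts. Every Piwi-MatKD_2 library was below every other library, and Piwi-MatKD_1 overlapped the controls. Between the lines the log2 difference was -2.04 ± 0.47 (SE), lower in Piwi-MatKD_2 in all libraries, with an adjusted p of 0.0264 in edgeR. Over its alternatives the adjusted p ran from 0.000174 to 0.0922, and without Piwi-MatKD_1 replicate 2 the difference was -1.52, with an adjusted p of 0.0922. Against GFP-MatKD it was 0.94 ± 0.44 for Piwi-MatKD_1 and -1.09 ± 0.46 for Piwi-MatKD_2, and neither passed (adjusted p = 0.201 and 0.163). mt:tRNA:Tyr-GTA had 39.2, 44.6 and 33.2 CPM in GFP-MatKD, 41.2, 35.7 and 43.9 in Piwi-MatKD_1, and 19.2, 29.4 and 29.5 in Piwi-MatKD_2. Its Piwi-MatKD_2 libraries were also below all others, with a log2 fold change of -0.57 ± 0.26 (SE) against GFP-MatKD and an adjusted p of 0.195 in edgeR.

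**Figure D5:**
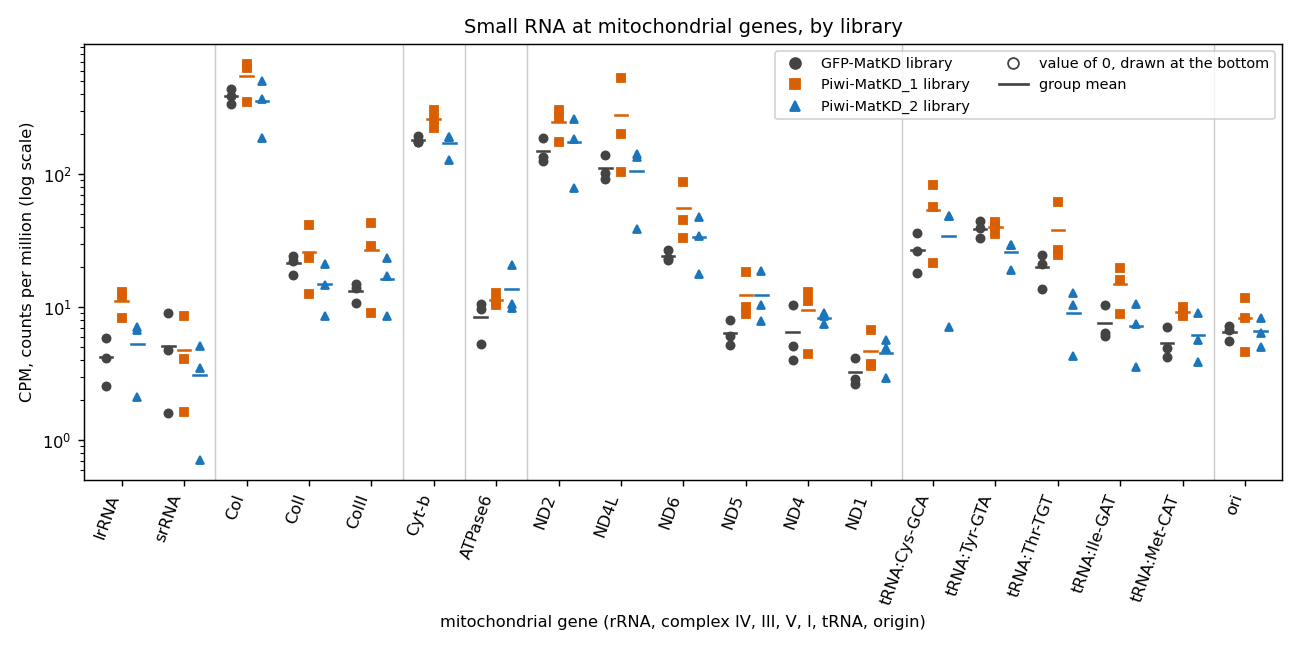
CPM per gene (log scale) of the 19 mitochondrial genes tested in the small RNA table, grouped by role; each point is 1 library and a dash is a group mean. For mt:Cyt-b, mt:ND6 and mt:lrRNA all 3 Piwi-MatKD_1 points lie above the controls, and for mt:tRNA:Thr-TGT and mt:tRNA:Tyr-GTA all 3 Piwi-MatKD_2 points lie below them.

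Against GFP-MatKD, 0 of the 19 tested genes passed in Piwi-MatKD_1, where 7.51% of all 2169 tested features did, 0 of 19 in Piwi-MatKD_2, where 12.5% did, and 0 of 19 for the mean of both lines, where 11.2% did. Between Piwi-MatKD_2 and Piwi-MatKD_1, 1 of 19 passed, mt:tRNA:Thr-TGT, where 5.39% of all features did, so the count is near the background. Before adjustment, edgeR put 6, 1, 2 and 5 of them under 0.05, against 25.2%, 26.2%, 24.0% and 25.8% of all features. DESeq2 called 1, 0, 0 and 1, against 8.39%, 12.8%, 10.5% and 7.20%. In Piwi-MatKD_1, 18 of 19 log2 fold changes were above 0, with a median of 0.74, against 0.13 over all features; the median was 0.45 without Piwi-MatKD_1 replicate 2. In Piwi-MatKD_2, 11 of 19 were above 0, with a median of 0.15, against -0.04 over all features, and the median was -0.10 when libraries were scaled by their totals. Its sign also turned without Piwi-MatKD_2 replicate 3, at -0.16, and without GFP-MatKD replicate 1, at -0.08, and it was 0.01 without Piwi-MatKD_2 replicate 2, 0.34 without replicate 1 of that group and 0.34 without GFP-MatKD replicate 3. The genes higher than GFP-MatKD in every Piwi-MatKD_1 library were 5 of 19, mt:ND5, mt:ND6, mt:Cyt-b, mt:lrRNA and mt:tRNA:Met-CAT, against 14.3% of all features, and 0 were lower in every library, against 19.5%. Those lower in every Piwi-MatKD_2 library were 2 of 19, against 17.2% of all features, and 0 were higher, against 15.2%. Between the lines, 4 of 19 were lower in every Piwi-MatKD_2 library, mt:Cyt-b, mt:lrRNA and the tRNAs for Thr and Tyr, against 15.9% of all features, and 0 were higher, against 14.7%.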

How the data were processed

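The authors deposited an RNA table of signal values, and 100% of its values above 0 were whole multiples, within 0.01 of a read, of 1 step per library, which makes each value a count over that library's size factor. The small RNA table holds deposited expected counts per gene, fractions included, which were rounded for testing. Per the submitters' processing notes, cutadapt, Bowtie 1.2.2, featureCounts and the build BDGP6 were used; their roles, the annotation and the handling of strand and of reads with several matches are not given in the sources used here. Gene positions came from a RefSeq table of Release 6, which held 37 of the 38 genes; coding strands are textbook knowledge. RNA was tested with limma 3.58.1 (trend) on log2(value + 1) over features at 1 or more in at least 3 libraries; fold changes on this scale understate those of low genes. For small RNA, edgeR 4.0.16 was used (filterByExpr, TMM factors, quasi-likelihood test). Each fit took all 9 libraries, with 1 common spread; p-values were adjusted by Benjamini-Hochberg over all features at 0.05. Scripts were tested on simulated data. On recovered reads, edgeR called 22, 300, 70 and 239 features in Piwi-MatKD_1 and Piwi-MatKD_2 against GFP-MatKD, their mean, and between the lines, and DESeq2 1.42.0 called 74, 810, 309 and 693. Depths were 8.5 to 73.0 M reads and 1.88 to 3.38 M expected counts. Every gene with a symbol starting mt: that passed the filter was described or counted; nuclear lists (oxidative phosphorylation, mitochondrial ribosomal proteins, mitochondrial DNA and RNA factors) and markers of follicle cells, muscle, zygotic activation and germ plasm were counted. The genes and lists were chosen with earlier results of these data known. Plots used matplotlib 3.10.9.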

Additional observations from a re-analysis of the deposited data

Results flagged for a closer look

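Small RNA at mt:tRNA:Thr-TGT differed between the knockdown lines: its log2 difference was -2.04 in Piwi-MatKD_2 against Piwi-MatKD_1, tested directly with edgeR's quasi-likelihood test at an adjusted p of 0.0264, and it was lower in 3 of 3 libraries. It was the single mitochondrial gene of 19 to pass, where 5.39% of all features did, so the count is near the background. Its Piwi-MatKD_2 values rest on 6 to 33.5 expected counts. The adjusted p in edgeR was 0.0695 with the groups of the comparison alone. Leaving out GFP-MatKD replicate 1, Piwi-MatKD_1 replicate 2 or any Piwi-MatKD_2 replicate gave 0.0521 to 0.0922.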

How the results depend on the processing

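The number of mitochondrial genes past the threshold was within 1.5 times its main count in 111 of 130 comparisons with alternatives and moved in 19. In RNA, where it was 0 in all comparisons, DESeq2 gave 1 for Piwi-MatKD_2 against GFP-MatKD and 3 between the lines. Leaving out 1 library gave 0 to 3 for Piwi-MatKD_2 against GFP-MatKD, 0 to 1 for the mean of both lines and 0 to 4 between the lines; each upper value came without the 73.0 M library, which leaves the rRNA-rich ones, and included mt:srRNA. Without both rRNA-rich libraries, chosen after seeing the data, the counts were 0. In small RNA, Piwi-MatKD_1 against GFP-MatKD gave 1 with DESeq2 (mt:ND6), 1 with no filter (mt:ND4L), and 0 to 2 when a library was left out. Piwi-MatKD_2 against Piwi-MatKD_1, at 1, gave 2 with no filter, 0 with the groups of the comparison alone, and 0 to 3 when a library was left out; it was 0 without GFP-MatKD replicate 1, Piwi-MatKD_1 replicate 2 or any Piwi-MatKD_2 replicate, with adjusted p for mt:tRNA:Thr-TGT from 0.0521 to 0.0922, and 3 without Piwi-MatKD_1 replicate 1. With the replicate block, small RNA counts were 2 for Piwi-MatKD_1 against GFP-MatKD (mt:ND6 and mt:lrRNA, adjusted p of 0.0374 and 0.0393 in edgeR) and 3 between the lines (mt:ND4L, mt:Cyt-b and mt:tRNA:Thr-TGT), and in RNA, where GFP-MatKD and Piwi-MatKD_1 alone carry numbers, 0. Deviations of same-numbered libraries correlated at -0.30 to -0.13 in RNA and -0.17 to 0.50 in small RNA, and not every pair was above 0.1, nor do the labels name a shared batch, so the numbers were not taken to pair the libraries. In small RNA a library correlated best with its own number in 11 of 18 cases, and in RNA in 0 of 6; a partial link in small RNA was not tested further. The causes of these moves were not tested. Apart from those of DESeq2, given above, the shares of all features under these alternatives are not given. The counts under them are therefore not read as above or below the background. Library totals shifted the median of all RNA features in Piwi-MatKD_2 against GFP-MatKD to -0.19, and of the mitochondrial genes to 0.17. Genes with few counts are limited by depth.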
